A study of Homo sapiens with 6 samples.

Results

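The genes described here encode the transcription factors that are made as membrane proteins of the endoplasmic reticulum (ER) and freed by proteolysis, namely CREB3, CREB3L1, CREB3L2, CREB3L3, ATF6 and ATF6B, the site-1 and site-2 proteases that free them, MBTPS1 and MBTPS2, and the IRE1 arm of the unfolded protein response, ERN1 (the sensor IRE1 alpha) and XBP1. They were selected on their role, with the sorafenib-against-control differences already known from these arrays, so their differences are given below as a description and without a test. All probes that the platform annotation assigned to the 10 symbols were taken, which gave 15 of 47321 probes and 10 of the 20045 genes with a named probe.

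mRNA was measured in Hep3B, a human liver cancer line in long use, on 6 Illumina BeadChips. In the control group, 3 samples received the solvent DMSO for 24 h. In the sorafenib group, 3 samples received sorafenib, an inhibitor of RAF kinases and receptor tyrosine kinases, for 24 h at a labelled dose of 3 mM, a unit that could not be checked here. The labels number the samples 1 to 3 without saying that they came from separate cultures. Every p-value below therefore sets the difference between groups against sample-to-sample spread alone, and that spread may be technical.

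Values are log2 intensities after background correction and quantile normalization, and a probe counted as detected on an array when its detection p-value, the chance of such a signal from background, was under 0.01. Between 16214 and 17380 probes were detected per array, and 16909 were detected on at least 3 of the 6 and tested. Arrays of a group correlated at 0.992 to 0.997 and arrays of different groups at 0.977 to 0.982. Of 10 hepatocyte and liver cancer markers, 9 had a named probe and all 9 were detected, albumin and alpha-fetoprotein (AFP) among them. Of 20 markers of macrophages, fibroblasts, endothelium and lymphocytes, 4 were measured. The summed linear level of the macrophage markers measured, CD14 and CD68, ran from 1198 to 1234 in controls and from 1342 to 1577 with sorafenib, and that of lumican (LUM), the 1 measured fibroblast marker, from 1505 to 1760 and from 1060 to 1115. The 1 measured lymphocyte marker, CD2, ran from 64.9 to 84.7 and from 65.8 to 74.4. The defining genes PTPRC, COL1A1, PECAM1 and CD3D were detected on no array, and the part of the other markers in the results below was not tested. In bulk RNA such as this, fewer cells of a type and less RNA per cell cannot be told apart.

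ATF6 and the CREB3 factors sit in the ER membrane until they are carried to the Golgi, where the site-1 protease cuts them in the lumen and the site-2 protease within the membrane, and the freed fragment enters the nucleus as a bZIP transcription factor. IRE1 stays in the ER, where on stress its ribonuclease removes a short intron from XBP1 mRNA, so that the spliced message encodes an active factor. ATF6 and XBP1 are known for inducing chaperones, protein import and ER-associated degradation, and CREB3L3 (CREBH) is the liver-enriched family member, known in mouse for acute-phase, iron and lipid genes. The arrays measured mRNA, so cleavage of the proteins and splicing of XBP1 were not measured.

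Promoters of the members were searched because ATF6, XBP1 and the CREB3 factors bind related DNA elements, and ATF6 is known to induce XBP1 itself. RefSeq entries on GRCh38.p14 were found for all 10 members (12 entries, since CREB3L2 and XBP1 have an extra start), and the 250 bases upstream of each annotated start were read on both strands. The elements were the full cAMP response element TGACGTCA, its half-site TGACG (also part of the full element), the XBP1-type core TGACGTG (which also contains the half-site), the ER stress response element (ERSE: CCAAT, 9 bases, CCACG), the CCACG end of the ERSE alone, the CCAAT box and the C/EBP-ATF composite element TGATGNAA. The 4 upstream regions below are those of the members whose levels differed most, CREB3L3 and ATF6, and of those holding an ERSE or a full response element, XBP1 and CREB3L2. They lie at chr19:4153381-4153630 (+ strand), chr1:161766070-161766319 (+ strand), chr22:28800570-28800819 (- strand) and chr7:138002087-138002336 (- strand). Each is written 5′ to 3′ along the gene's own strand, with matches in capitals other than a CCAAT box standing alone.
CREB3L3: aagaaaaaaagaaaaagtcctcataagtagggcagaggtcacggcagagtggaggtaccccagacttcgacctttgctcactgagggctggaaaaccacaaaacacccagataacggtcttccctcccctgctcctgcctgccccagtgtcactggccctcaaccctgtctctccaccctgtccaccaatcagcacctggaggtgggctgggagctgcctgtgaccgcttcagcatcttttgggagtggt
ATF6: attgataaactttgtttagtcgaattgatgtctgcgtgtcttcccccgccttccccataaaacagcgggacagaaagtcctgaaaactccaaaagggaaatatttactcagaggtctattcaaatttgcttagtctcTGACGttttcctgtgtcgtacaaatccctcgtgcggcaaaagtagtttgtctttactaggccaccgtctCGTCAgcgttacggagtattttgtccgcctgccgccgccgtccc
XBP1: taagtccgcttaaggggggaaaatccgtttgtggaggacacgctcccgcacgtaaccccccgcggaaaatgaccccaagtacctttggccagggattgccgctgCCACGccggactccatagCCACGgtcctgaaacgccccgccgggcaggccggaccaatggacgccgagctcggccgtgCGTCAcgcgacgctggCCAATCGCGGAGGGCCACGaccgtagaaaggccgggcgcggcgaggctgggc
CREB3L2: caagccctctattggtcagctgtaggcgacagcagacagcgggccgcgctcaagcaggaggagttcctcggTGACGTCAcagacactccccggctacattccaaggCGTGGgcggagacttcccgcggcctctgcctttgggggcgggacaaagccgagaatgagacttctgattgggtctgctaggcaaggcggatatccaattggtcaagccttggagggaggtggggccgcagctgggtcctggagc

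The XBP1 region was the one member region with an ERSE, found 52 to 34 bases before the start, an arrangement held by 26 of 35116 promoters (0.074%). It also held 2 further CCACG matches, which 33.5% of all promoters have at least 1 of, and 1 CRE half-site. A CCAAT box outside the ERSE lay 93 to 89 bases before the start. The CREB3L2 region was the one with a full cAMP response element, 179 to 172 bases before the start, against 1.65% of all promoters. This region also held a CCACG match on the opposite strand, 144 to 140 bases before the start, and several CCAAT boxes. The ATF6 region held 2 half-sites, 113 to 109 bases before the start on the gene's strand and 44 to 40 on the opposite strand, where 21.2% of promoters hold at least 1. CREB3L3 held none of these elements in this window other than a CCAAT box, 65 to 61 bases before the start (32% of promoters). Of the remaining members, CREB3 held 1 half-site and 2 CCACG matches, MBTPS1 held 3 CCACG matches, ATF6B and ERN1 each held a CCAAT box, and CREB3L1 and MBTPS2 held none. No member region held TGACGTG (1.68% of promoters), the composite element (3.14%) or the ERSE-II arrangement of ATTGG, any base and CCACG (0.0513%). The extra start of CREB3L2 held none of the elements, and that of XBP1 held 2 CCACG matches. A match describes the letters of the window and does not show binding.

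Of the 15 member probes, 12 from 8 genes were tested, and each of the 12 was detected on all 6 arrays, so none entered through 1 group alone. The other 3 probes, for CREB3L1, ERN1 and an alternative ATF6B transcript, were detected on no array. The fitted difference was positive for 9 of the 12 and negative for 3, with a median of 0.13 on the log2 scale against -0.01 over all tested probes. In 6 of the 12 the 3 sorafenib values lay wholly above (4 probes) or below (2 probes) the 3 control values, and 49.5% of all tested probes were so separated. CREB3L3 and ATF6 were past limma's threshold, an adjusted p-value under 0.05, where 34.2% of all tested probes were. Because the members were chosen with this contrast known, nothing is read from these counts.

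**Figure D1:**
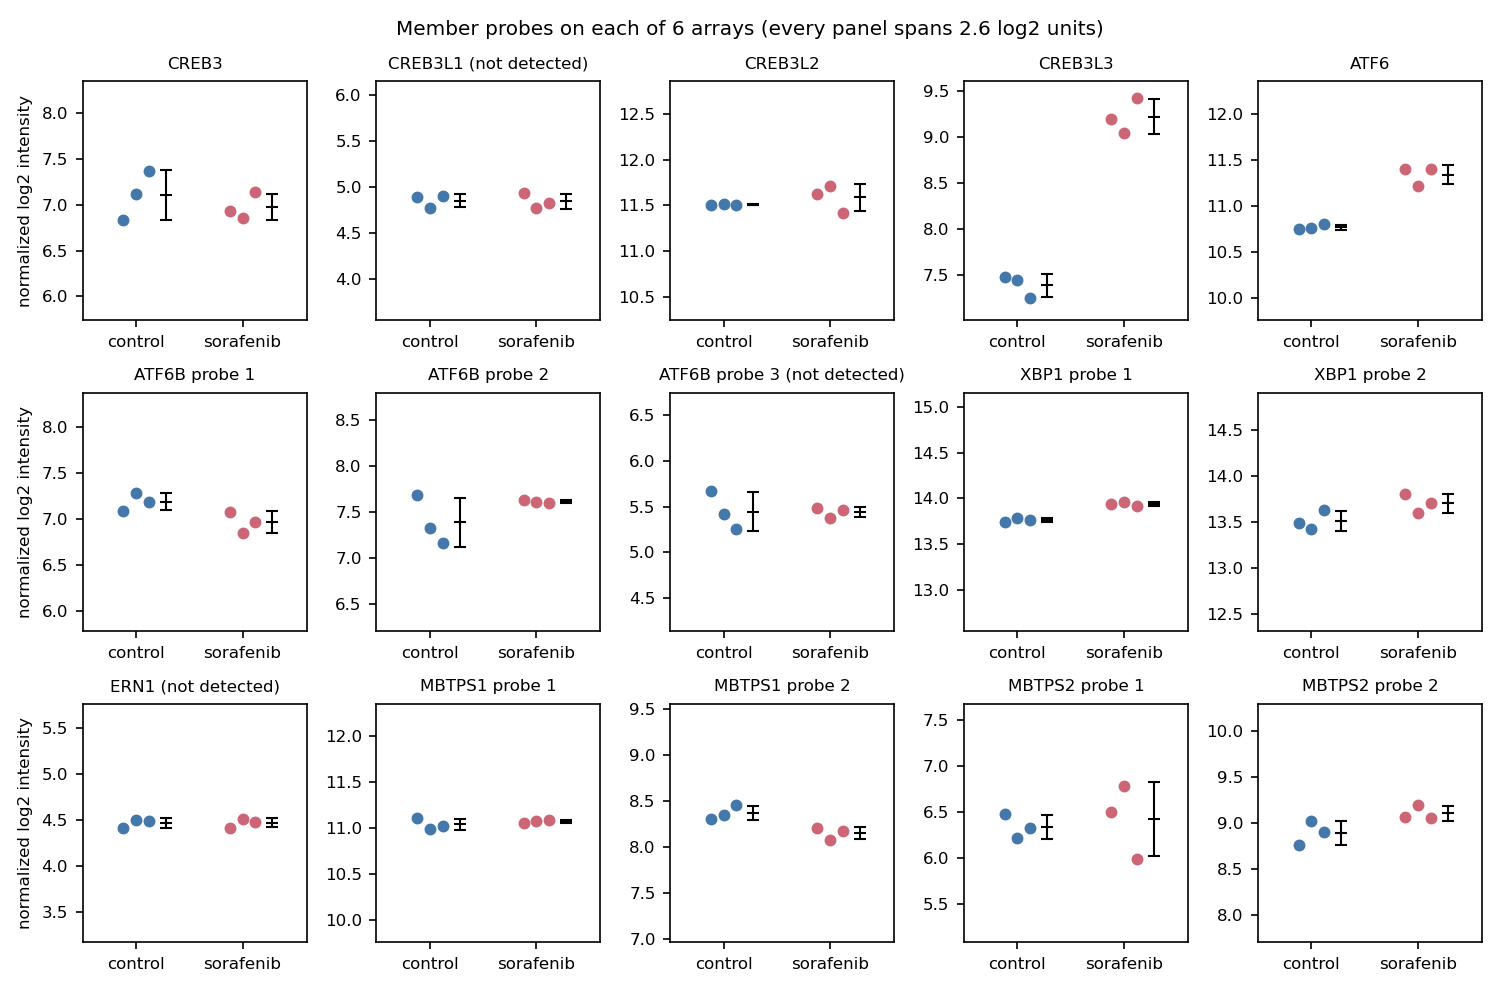
Normalized log2 intensity (vertical axis) of the 15 member probes on the 3 control and 3 sorafenib arrays; points are arrays, bars are the mean ± SD of 3, and all panels have the same height in log2 units. The sorafenib points of CREB3L3 and ATF6 stand clear of the control points, and XBP1 probe 1 is separated by a small step. ATF6B probe 1 and MBTPS1 probe 2 are separated downward and MBTPS2 probe 2 upward, also by small steps. In the panels marked as not detected the group means nearly coincide. Probes of a gene are numbered in the order of their identifiers.

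Among the CREB3 factors, CREB3L3 stood apart. Its probe (ILMN_1779524) had raw intensities of 237, 242 and 233 in the controls and of 791, 572 and 772 with sorafenib, and after normalization 7.48, 7.44 and 7.24 against 9.19, 9.04 and 9.42. The groups did not overlap, and the gap between them was several times the spread within either. CREB3L3 mRNA was 3.56-fold higher with sorafenib (log2 1.83 ± 0.12, SE, 95% interval 1.56 to 2.11, 3 arrays per group). By size of rise this placed it at rank 18 of 10598 genes. In the authors' deposited log2 values, which carry no background correction, the same probe differed by 1.45, or 2.74-fold, the lowest of the values obtained for it. With any 1 array left out the difference stayed between 1.73 and 1.93.

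The values of CREB3 and CREB3L2 overlapped between the groups, and CREB3L1 was not measured. CREB3L4, which is not among the members, is given below with the other family factors. CREB3 (Luman), a widely expressed member, read 6.83, 7.12 and 7.37 in controls and 6.93, 6.85 and 7.13 with sorafenib. The log2 difference was -0.13 ± 0.15 (SE, 95% interval -0.48 to 0.21). CREB3L2 (BBF2H7), known in mouse cartilage for inducing secretory pathway genes, read 11.51, 11.52 and 11.50 in controls and 11.63, 11.72 and 11.42 with sorafenib. Sorafenib sample 3 lay below every control, and the difference was 0.08 ± 0.09 (95% interval -0.13 to 0.29). CREB3L1 (OASIS), known in mouse bone for collagen genes, had raw intensities of 91.4 to 108 and detection p-values of 0.24 to 0.46, so it was not measured above background in either group.

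**Figure D2:**
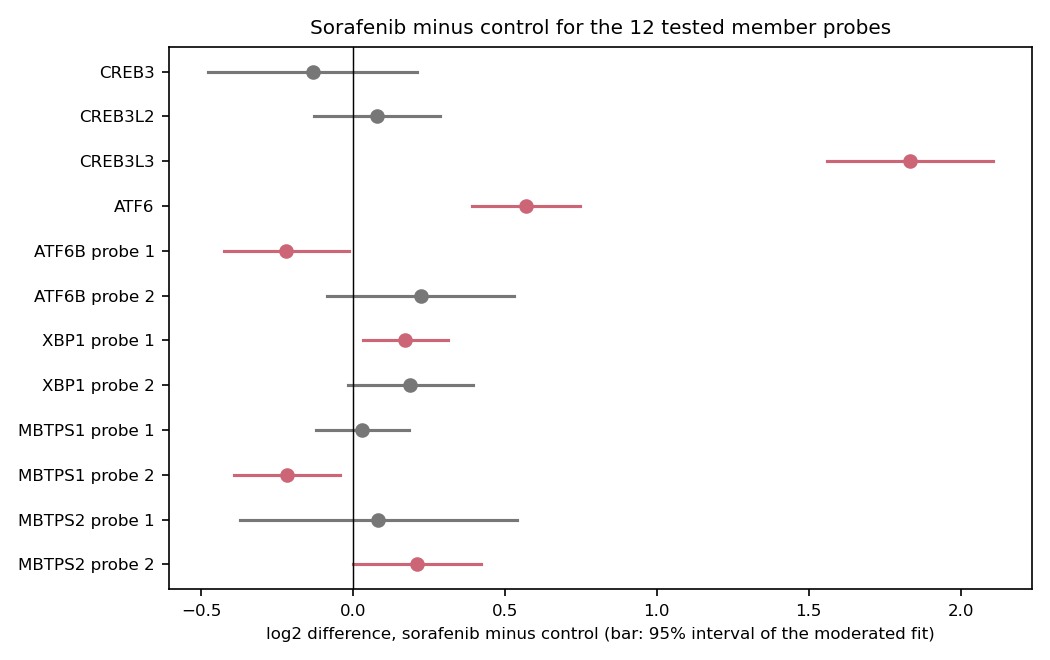
Log2 difference, sorafenib minus control (horizontal axis), of the 12 tested member probes; dots are fitted differences, bars their 95% intervals from limma, and red marks probes whose groups did not overlap. CREB3L3 lies at 1.83 and ATF6 at 0.57, while the other 10 probes lie between -0.22 and 0.22.

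ATF6, the ER stress sensor that itself becomes the transcription factor, was higher with sorafenib by a smaller step. Its probe (ILMN_1703471) read 10.75, 10.76 and 10.80 in controls and 11.40, 11.22 and 11.40 with sorafenib. The groups did not overlap. The difference was 1.48-fold (log2 0.57 ± 0.08, SE, 95% interval 0.39 to 0.75, 3 arrays per group), at rank 721 of 10598 genes by rise. It ran from 0.54 to 0.66 over the 17 alternative settings.

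ATF6B, the close relative of ATF6, gave probes with differences of opposite sign. The brighter probe (ILMN_3194911) read 7.68, 7.33 and 7.16 in controls and 7.62, 7.61 and 7.59 with sorafenib, and overlapped, with a difference of 0.22 ± 0.13 (95% interval -0.08 to 0.53). The dimmer tested probe (ILMN_1814313) read 7.09, 7.28 and 7.19 in controls and 7.08, 6.85 and 6.97 with sorafenib. It did not overlap and lay lower with sorafenib, by -0.22 ± 0.09 (95% interval -0.43 to -0.01). Both are annotated to the same transcript, and their differences were 0.44 apart, so no direction is given for ATF6B. The third probe, annotated to an alternative transcript, had detection p-values of 0.0234 to 0.0935 and did not reach the detection limit.

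In the IRE1 arm, ERN1 was not detected on any array. Its 1 probe (ILMN_1731231) had raw intensities of 65.8 to 76.5 and detection p-values of 0.904 to 0.999. Whether IRE1 mRNA differed between the groups could not be read from this probe.

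XBP1 gave bright signals in both groups. The probe annotated to the transcript of the unspliced form (ILMN_1809433) read 13.75, 13.78 and 13.77 in controls and 13.94, 13.96 and 13.92 with sorafenib. These groups did not overlap, although the step was small: 1.13-fold (log2 0.17 ± 0.06, SE, 95% interval 0.03 to 0.31). The probe annotated to the transcript of the spliced form (ILMN_2365465) read 13.49, 13.42 and 13.64 against 13.80, 13.60 and 13.71, with a difference of 0.19 ± 0.09 (95% interval -0.02 to 0.39). It overlapped, since the highest control exceeded the lowest sorafenib value. The 2 probes' differences were within 0.02 of each other. Probe sequences were not used here, so whether either probe separates the spliced from the unspliced message is unknown. With the arrays centred on the tested probes instead of quantile-normalized, the differences shrank to 0.06 and 0.07.

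For the proteases, probes of 1 gene differed in their response. MBTPS1, the site-1 protease, read 11.11, 10.99 and 11.02 in controls and 11.05, 11.07 and 11.09 with sorafenib on its brighter probe (ILMN_1651719). These values overlapped, with a difference of 0.03 ± 0.06 (SE, 95% interval -0.12 to 0.18). Its dimmer probe (ILMN_1767256) read 8.30, 8.35 and 8.45 against 8.20, 8.08 and 8.17, without overlap and lower by -0.22 ± 0.07 (95% interval -0.39 to -0.04). The 2 probes, annotated to the same transcript, thus differed from each other by 0.25 in their response.

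MBTPS2, the site-2 protease, read 8.76, 9.02 and 8.90 in controls and 9.06, 9.20 and 9.06 with sorafenib on its brighter probe (ILMN_1860288), which is annotated to a cDNA clone. The groups did not overlap, by a narrow margin, and the difference was 0.21 ± 0.09 (95% interval 0.00 to 0.42). The probe annotated to its RefSeq transcript (ILMN_1798311) read 6.48, 6.22 and 6.33 against 6.51, 6.78 and 5.99. Sorafenib sample 2 was the highest and sorafenib sample 3 the lowest of the 6, and the difference was 0.08 ± 0.19 (95% interval -0.37 to 0.54). Its sign rested on single arrays, since it was -0.10 without sorafenib sample 2 and 0.30 without sorafenib sample 3.

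**Figure D3:**
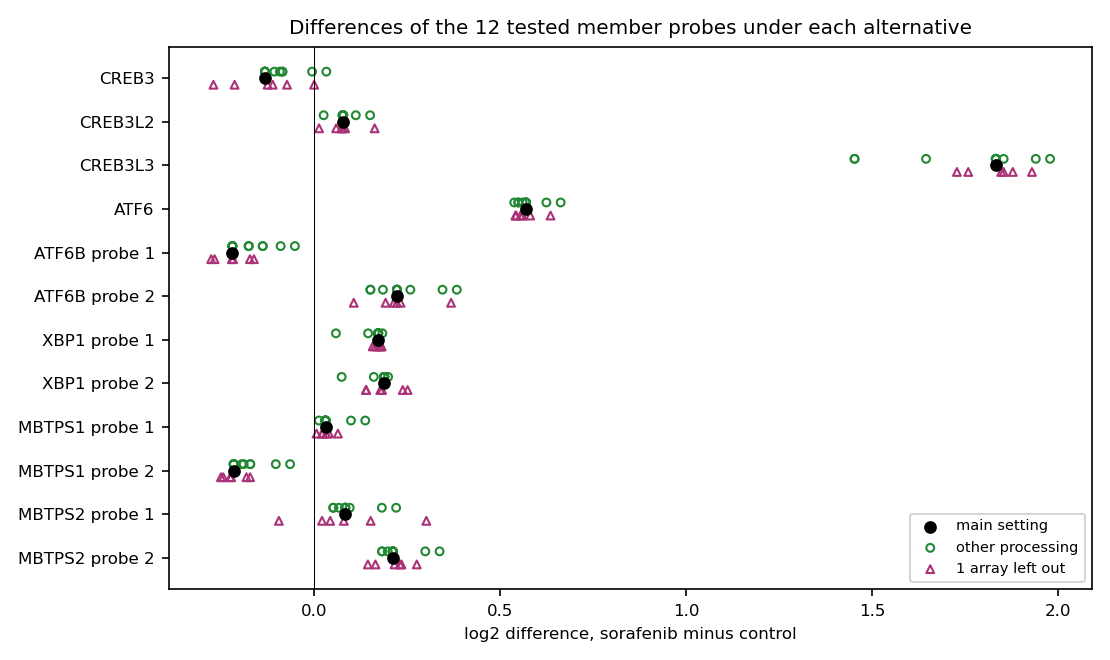
Log2 difference, sorafenib minus control (horizontal axis), of the 12 tested member probes in the main setting (black), under other processing (green circles) and with 1 array left out (purple triangles). CREB3L3 and ATF6 stayed on the right in every setting, at 1.45 to 1.98 and 0.54 to 0.66, and CREB3 and MBTPS2 probe 1 have points on both sides of 0.

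Genes around the members were counted in 11 lists by role, drawn up with earlier results of these arrays known: 125 genes in all. A named probe existed for 115, and 98 were measured, each through its brightest tested probe. By limma with Benjamini-Hochberg adjustment over all tested probes, 27 of the 98 were higher with sorafenib (27.6%), 10 lower and 61 not past the threshold. Over all 10598 tested genes, 19.7% were higher and 17.0% lower. CIDEC and CREB3L4, among the higher, were measured only through the sorafenib arrays, and PDGFRB, among the lower, only through the control arrays. The median log2 difference was 0.07 over the 98 and -0.00 over all tested genes. The share of higher among called genes in the lists, 73.0%, was 86.2% with median centring and 87.5% without normalization between arrays, and that of all tested probes moved from 52.5% to 69.5% and 75.7%.

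**Figure D4:**
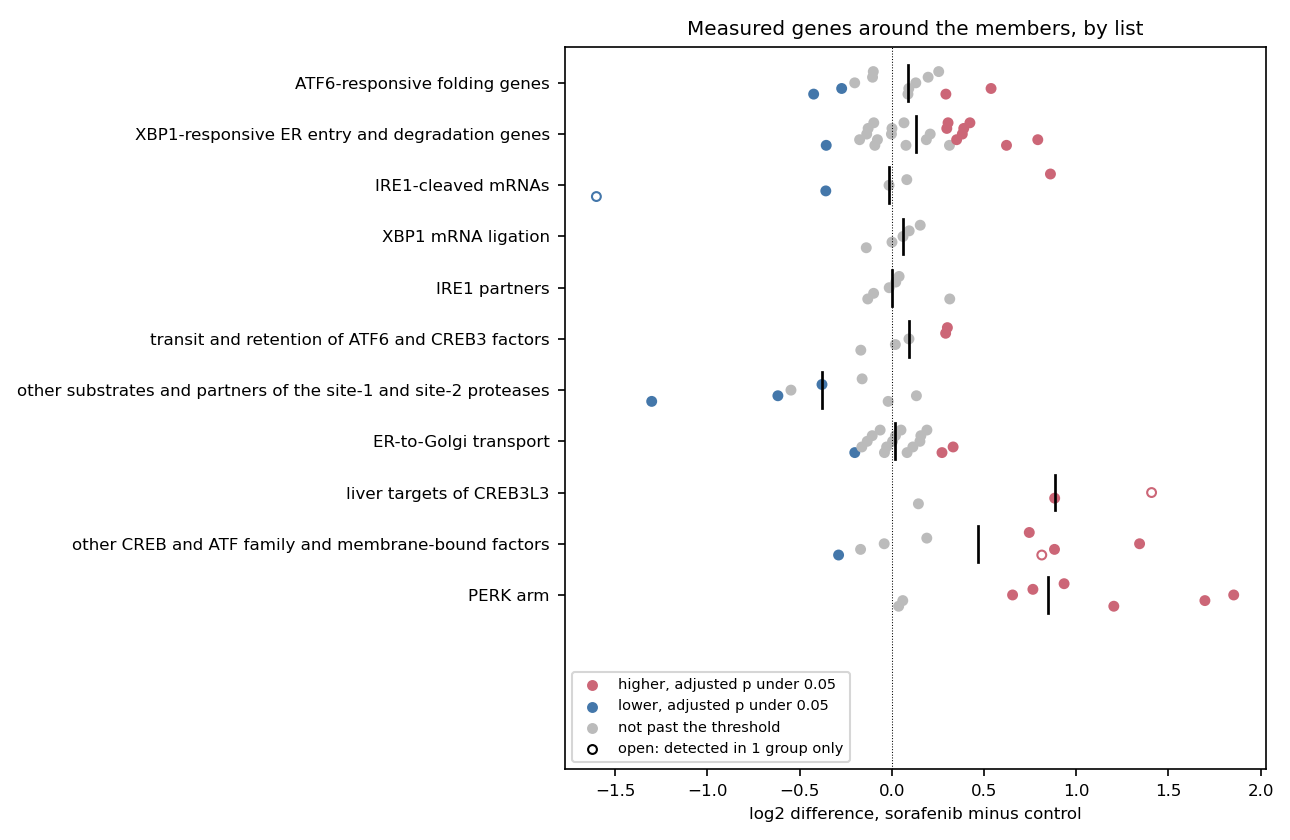
Log2 difference, sorafenib minus control (horizontal axis), of the 98 measured genes in 11 lists; each point is a gene, red and blue mark genes past limma's threshold, open points mark genes detected in 1 group only, whose difference is a fitted value and no bound, and black lines are list medians. The PERK arm has a median of 0.85 over 8 genes, and the other protease substrates and partners one of -0.38 over 7. The liver targets of CREB3L3 have one of 0.88 over 3 of the 11 listed genes. Of these 3, CIDEC was measured only because it was detected with sorafenib, so this median is not read as a result about the targets.

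Of 12 measured chaperone and folding genes that ATF6 induces, 2 rose, 2 fell and 8 did not pass, with a median of 0.09. These counts were near the shares over all tested genes, 19.7% higher and 17.0% lower. HYOU1, an ER chaperone of the Hsp70 family, was 1.45-fold higher (log2 0.54 ± 0.12, SE, limma adjusted p = 0.0125), and a second probe gave 0.59. SYVN1, the ubiquitin ligase HRD1 of ER-associated degradation, was 1.23-fold higher on its brightest probe (log2 0.29 ± 0.07, limma adjusted p = 0.0167), and a second probe gave -0.03. MANF, a secreted ER stress protein, fell by 0.42 ± 0.06 on the log2 scale (limma adjusted p = 0.00257), and SDF2L1, an ER chaperone cofactor named after its values were seen, by 0.27 ± 0.07 (limma adjusted p = 0.0221). HSPA5, the chaperone BiP and the best-known ATF6 target, averaged 8.63 ± 0.06 in controls and 8.83 ± 0.13 with sorafenib (SD, n = 3); its difference of 0.20 ± 0.09 did not pass (limma adjusted p = 0.119). HSP90B1 (GRP94) differed by 0.09 (limma adjusted p = 0.380).

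Of 22 measured genes of ER entry and degradation that XBP1 induces, 8 rose, 1 fell and 13 did not pass, with a median of 0.13. Over all tested genes, 19.7% were higher and 17.0% lower, and the difference from these shares was not tested. GFPT1, the entry enzyme of the hexosamine pathway, was 1.73-fold higher (log2 0.79 ± 0.07, SE, limma adjusted p = 0.000368), with 0.70 on a second probe. DNAJB9 (ERdj4), a BiP cofactor, was 1.54-fold higher (0.62 ± 0.10, limma adjusted p = 0.00347), and SERP1, which stabilizes membrane proteins at the translocon, 1.34-fold higher (0.42 ± 0.09, limma adjusted p = 0.0132). EDEM1, a mannosidase-like degradation factor, was higher by 0.39 ± 0.08 (limma adjusted p = 0.0096) and SEC61A1, the channel subunit of the translocon, by 0.30 ± 0.08 (limma adjusted p = 0.0225). The call of SEC61A1 was lost in 8 of 17 alternatives, among them those without control sample 1 or 3 or sorafenib sample 2 or 3. DNAJC3, a BiP cofactor also known as P58IPK and named after its values were seen, was the 1 that fell, by 0.36 ± 0.09 (limma adjusted p = 0.0247), a call lost in 8 of 17.

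mRNAs that IRE1 is known to cut were called in both directions. Of 5 measured, 1 rose and 2 fell, where 19.7% of all tested genes were higher and 17.0% lower. BLOC1S1, the most used reporter of this activity, averaged 10.30 ± 0.15 in controls and 10.38 ± 0.13 with sorafenib (SD, n = 3; difference 0.08, limma adjusted p = 0.590). SCARA3, a scavenger receptor, fell by 0.36 ± 0.08 (SE, limma adjusted p = 0.0142), a call lost in 3 of 17 alternatives, among them the one without sorafenib sample 1. PDGFRB, a receptor tyrosine kinase, was detected on all control arrays and on no sorafenib array and was at least 1.56-fold lower (limma adjusted p = 0.000225). It was measured only through the control arrays and could hardly have counted as higher. The count of 2 that fell is therefore not read as a result about these mRNAs. TNFRSF10B, the death receptor DR5, rose 1.82-fold (log2 0.86 ± 0.07, limma adjusted p = 0.000289), and by 1.16 on a second probe. None of the 5 measured genes of the ligase that joins XBP1 exons passed on its brightest probe (RTCB, the ligase itself, at 0.00, limma adjusted p = 0.991). Among them, ZBTB8OS, named after its values were seen, differed by 0.09 on its brightest probe and by 0.99 on a second probe. None of 6 measured IRE1 partners passed on its brightest probe.

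Proteins that hold ATF6 in the ER or escort it, and those that bind the CREB3 factors, included 2 of 5 measured genes that rose. The share over all tested genes was 19.7%. NUCB1, which in earlier cell culture work restrained ATF6 activation, was higher by 0.29 ± 0.06 (SE, limma adjusted p = 0.0131), a call lost in 4 of 17 alternatives, among them the one without control sample 1. PDIA5, a disulfide isomerase reported to act on ATF6, was higher by 0.30 ± 0.08 (limma adjusted p = 0.0293), a call lost in 7 of 17 alternatives. WFS1 (wolframin), reported to hold ATF6 for degradation, differed by 0.09 (limma adjusted p = 0.296). In ER-to-Golgi transport, the route by which these factors reach the proteases, 14 of 17 measured genes did not pass, 2 rose and 1 fell. Both counts were below the shares over all tested genes, 19.7% higher and 17.0% lower. COPG1, a COPI coat subunit, was higher by 0.33 ± 0.07 (limma adjusted p = 0.0141), a call lost in 3 of 17 alternatives, among them those without control sample 1 or sorafenib sample 1. The COPII subunit SEC23B, higher by 0.27 ± 0.08 (limma adjusted p = 0.0422), and the small GTPase ARF4, lower by -0.20 ± 0.06 (limma adjusted p = 0.0434), each lost the call in 11 of 17. The COPII genes SEC23A and SEC24D differed by 0.05 and 0.16 without passing.

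Among other substrates and partners of the same proteases, 3 of 7 measured genes fell, none rose and 4 did not pass, with a median of -0.38. Of all tested genes, 17.0% were lower and 19.7% higher. INSIG1, which retains the sterol regulators in the ER and is itself sterol-regulated, was 2.46-fold lower (log2 -1.30 ± 0.08, SE, limma adjusted p = 8.21e-05). SPRING1, a partner of the site-1 protease, fell by 0.62 ± 0.11 (limma adjusted p = 0.00627). SREBF1, the sterol-regulated factor cut by both proteases, fell by 0.38 ± 0.07 (limma adjusted p = 0.0053), with -0.35 on a second probe. SREBF2 overlapped between groups, with a difference of -0.55 ± 0.19 (limma adjusted p = 0.062) that passed in 8 of 17 alternatives. SCAP, the escort of both, differed by 0.13 (limma adjusted p = 0.191).

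Targets of CREB3L3 known from mouse liver were mostly out of range of the arrays: 10 of 11 had a named probe and 3 were measured. HAMP, the iron hormone hepcidin, averaged 8.81 ± 0.06 in controls and 9.70 ± 0.09 with sorafenib (SD, n = 3), 1.84-fold higher (log2 0.88 ± 0.07, SE, limma adjusted p = 0.000295). CIDEC, a lipid droplet protein, was detected on all 3 sorafenib arrays and on no control array and was at least 1.69-fold higher on the background-corrected scale (limma adjusted p = 0.000682). In the authors' deposited log2 values, which carry no background correction, the fold was 1.58, so the bound holds for the corrected scale alone. APOC2, an activator of lipoprotein lipase, differed by 0.14 and did not pass. CRP, APOA4, FGF21, PPARA, PCK1 and G6PC1 were detected on no array, and APOA5 on 1 sorafenib array.

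Among other membrane-bound and CREB or ATF family factors, 4 of 8 measured genes rose and 1 fell. The shares over all tested genes were 19.7% higher and 17.0% lower. CREB3L4, the remaining CREB3 family gene, was detected on all sorafenib arrays and on no control array and was at least 1.16-fold higher (limma adjusted p = 0.00236). It was measured only because it was detected with sorafenib and could hardly have counted as lower. The count of 4 is therefore not read as a result about this list. NFE2L1, an ER-anchored regulator of proteasome genes, was 1.84-fold higher (log2 0.88 ± 0.07, SE, limma adjusted p = 0.000243), and ATF3, a stress-induced repressor, 2.54-fold higher (1.34 ± 0.07, limma adjusted p = 6.45e-05). ATF5, a related stress factor, rose by 0.75 ± 0.07 (limma adjusted p = 0.000471), and MYRF, a membrane-bound factor that cleaves itself, fell by 0.29 ± 0.07 (limma adjusted p = 0.0182), a call lost in 7 of 17. Both were named after their values were seen. In the PERK arm, the third branch of the response, 6 of 8 measured genes rose, where 19.7% of all tested genes did. EIF2AK3, the PERK kinase, differed by 0.04 ± 0.08 (limma adjusted p = 0.750). ATF4, its translationally controlled factor, was 1.70-fold higher on its brightest probe (limma adjusted p = 0.000535), with 0.07 and 0.93 on other probes. CHAC1, also in this list, was 2.30-fold higher (log2 1.20 ± 0.10, limma adjusted p = 0.000297). The log2 difference of CREB3L3, 1.83, stands beside 1.70 ± 0.07 for DDIT3 (CHOP) and 1.85 ± 0.08 for TRIB3, a pseudokinase. In the authors' deposited log2 values, without background correction, CREB3L3 differed by 1.45, less than DDIT3 and less than TRIB3. The place of CREB3L3 relative to DDIT3 and TRIB3 thus depended on the background correction. The log2 difference of ATF6, 0.57, stands beside 0.77 for ATF4. Differences between these genes were not tested.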

How the data were processed

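Per the file headers, the authors deposited raw intensity per probe with its detection p-value, and further log2 values whose making is not described. The deposited log2 values equalled quantile-normalized log2 raw intensities within 5.0e-07, with a median of 6.79 in every column, and served as an alternative. Intensities were background-corrected from the detection p-values (limma 3.58.1 in R 4.3.3, offset 16), quantile-normalized and log2-transformed. Probes with detection p under 0.01 on at least 3 of 6 arrays were fitted with lmFit and eBayes (two-sided, no block), with Benjamini-Hochberg adjustment over 16909 probes and a threshold of 0.05. Scanner and slide are not given in the sources used, and the number of arrays limits the precision. The platform annotation gave 1 symbol to 30112 probes, several to 8 and none to 17201. A gene was its brightest tested probe. A gene undetected in 1 group has only a bound there ("at least N-fold"), taken from the dimmest detected signal.

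The members and lists were chosen with earlier results of these data known. Named were all members, in each list up to 3 called genes with the largest differences, and a fixed set of well-known pathway genes. TRAF2 of that set had no named probe. SDF2L1, DNAJC3, ATF5 and MYRF were named after their values were seen and are in the counts of named genes. ZBTB8OS was named afterwards for its second probe and is not in those counts. Alternatives were other background corrections, normalizations, detection filters and variance models, the replicate block, a per-gene median of probes and omission of 1 array at a time. Centring on tested probes was chosen after seeing the data. The fit was run on simulated data as a check of the code alone. That simulation had independent noise and few changed probes, unlike these arrays. RefSeq promoter entries were cut to the bases upstream of the start.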

Additional observations from a re-analysis of the deposited data

How the results depend on the processing

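Without normalization between arrays, 3554 probes instead of 5778 and 24 listed genes instead of 37 were past the threshold, and the median difference of the tested probes moved from -0.01 to 0.11. Leaving out 1 array gave 4022 to 5025 probes and 27 to 34 listed genes. Over 17 alternatives, 10 of the 12 member probes kept 1 sign. The exceptions were CREB3, which reached 0.03 without normalization between arrays, and the MBTPS2 probe on the RefSeq transcript, at -0.10 without sorafenib sample 2. Of 42 named genes, 32 were past the threshold. Of these, 19 kept the call in every alternative and 13 lost it in at least 1. Besides those named above, MANF lost it in 1, SREBF1 in 2, SYVN1 in 3 and SDF2L1 in 7. The cause was not tested. The replicate block gave 5519 probes and 37 listed genes, with the calls of SEC23B and ARF4 lost. Deviations of same-numbered samples correlated at 0.09, 0.10 and 0.25, and not every sample correlated best with its own number, so the numbers were not taken as pairs. Across numbers 1 and 2 the correlations were 0.09 and 0.10, and between number 3 and the others -0.17 to -0.14. The 2 samples numbered 3 thus deviated alike, for a reason that was not tested. Deviations were taken from each group's mean and so cancel within a group. Given the value of 0.25, the negative correlations of number 3 with the others follow from this and add no evidence. Genes near background, such as CREB3L1 and ERN1, were limited by signal.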
